A study of Mus musculus with 14 samples.

Results

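Tet1, Tet2 and Tet3 encode the ten-eleven translocation (TET) dioxygenases, and their expression was followed on 14 Affymetrix arrays of primordial germ cells of the mouse embryo, from which eggs and sperm develop. The members were the probe sets to which the platform annotation gave exactly 1 of these symbols. That rule found 7 probe sets of 3 genes, of 34945 probe sets with a single symbol that stood for 18193 genes. Tet1 had 4 of the probe sets, Tet2 had 2 and Tet3 had 1, and each is described here because those of Tet1 did not give the same pattern. The series concerns the loss of DNA methylation from imprinted genes in germ cells and whether it proceeds passively with DNA replication. There were 7 groups of 2 biological replicates: germ cells at embryonic day (E) 9.5, at E10.5 and at E11.5, all of unstated sex, and, at E12.5 and again at E13.5, male and female germ cells. The E9.5 cells were from C57BL/6 embryos of an earlier study, and the sources used here describe no sort for them. The other 12 samples came from embryos of BDF1 females mated to stella-EGFP transgenic males of a mixed B6/CBA background, in which the stella promoter marks germ cells with EGFP, and the EGFP-positive cells of trypsinized genital ridges were taken by flow sorting. RNA of the E9.5 cells was made with a standard RNeasy kit and amplified over 22 PCR cycles, and that of the other 12 samples with the RNeasy Micro kit over 12 cycles, so age cannot be told apart from strain, kit, cycle number and experiment in any comparison with E9.5. Every sample started from 5 ng of total RNA, equivalent to 500 cells. Apart from the word biological nothing says whether replicates came from separate litters, so p-values measure the spread between these samples.

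TET proteins use oxygen, iron(II) and 2-oxoglutarate to oxidize 5-methylcytosine to 5-hydroxymethylcytosine and then to 5-formylcytosine and 5-carboxylcytosine. The oxidized bases can be lost passively, since maintenance methylation copies them poorly when DNA is replicated, or can be cut out by thymine DNA glycosylase and replaced by base excision repair. In mouse germ cells Tet1 is known for its part in the activation of meiotic genes and in the erasure of some imprints, Tet2 is expressed beside it, and Tet3 is best known from the oocyte and zygote, where it oxidizes the paternal genome. Tet1 and Tet3 proteins can carry a CXXC zinc finger that binds CpG-rich DNA, whereas Tet2 lacks one.

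Promoters rich in CpG are where TET proteins are known to bind. The 250 bases before a RefSeq start of each gene are therefore shown (RefSeq, GRCm38.p6, all on the minus strand, 5′ to 3′, every CpG in capitals). The windows lie at chr10:62887325-62887574 for Tet1, chr3:133544391-133544640 for Tet2 and chr6:83441679-83441928 for Tet3, and all 3 members were matched by symbol.
Tet1: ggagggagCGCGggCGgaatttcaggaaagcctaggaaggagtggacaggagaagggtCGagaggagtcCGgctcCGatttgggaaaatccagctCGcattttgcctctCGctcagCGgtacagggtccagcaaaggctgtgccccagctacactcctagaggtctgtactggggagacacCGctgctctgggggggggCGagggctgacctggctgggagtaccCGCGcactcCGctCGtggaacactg
Tet2: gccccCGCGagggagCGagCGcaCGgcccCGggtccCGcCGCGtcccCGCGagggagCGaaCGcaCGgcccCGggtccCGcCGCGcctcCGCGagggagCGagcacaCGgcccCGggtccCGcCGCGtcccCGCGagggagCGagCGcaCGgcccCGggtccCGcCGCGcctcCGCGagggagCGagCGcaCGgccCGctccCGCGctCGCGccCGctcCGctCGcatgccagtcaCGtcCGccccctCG
Tet3: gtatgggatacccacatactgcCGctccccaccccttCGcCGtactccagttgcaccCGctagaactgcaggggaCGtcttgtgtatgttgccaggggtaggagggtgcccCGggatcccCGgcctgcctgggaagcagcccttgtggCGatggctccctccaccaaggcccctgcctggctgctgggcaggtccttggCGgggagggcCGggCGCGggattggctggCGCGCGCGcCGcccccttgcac

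The Tet2 window held 51 CpG at a GC content of 83.6%, and 0.067% of 32851 RefSeq promoter windows of the same length held at least as many. The Tet1 window held 15 CpG at 62.8% GC and the Tet3 window 17 CpG at 69.6% GC. Over all windows the median was 6 CpG, 27.3% held at least as many as Tet1 and 23.5% at least as many as Tet3. The GC box, searched as GGGCGG or CCGCCC so that both strands were covered, occurred 1 time in each of the 3 windows and in 32.7% of all windows. The CCAAT box, searched as CCAAT or ATTGG, occurred 1 time in the Tet3 window and in neither of the others, against 33.8% of all windows. These counts describe letters in 1 window per gene, and the arrays carry no measurement of methylation or binding there. The annotated genes span chr10:62804570-62887469 for Tet1, chr3:133463677-133545136 for Tet2 and chr6:83362373-83457208 for Tet3. Each window lies wholly or in part within its gene's span, which reaches further 5′ than the start used. Where in the transcripts the probes lie is not given in the sources used here.

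Levels are log2 signals as the authors normalized them over all 14 arrays together. The table ran from 0 to 14.04 with a median of 4.72, and array medians lay between 4.66 and 4.80. A probe set below the table median is called dim here, because at such levels a signal cannot be told from background with these files, which carry no detection calls. Replicates correlated at Pearson r of 0.953 to 0.975 over the single-symbol probe sets. The Gapdh 3′ minus 5′ probe set difference, a measure of RNA integrity and amplification, was 3.16 in E13.5 male replicate 2 and 3.09 in E13.5 female replicate 2, and between 0.21 and 2.53 in the other arrays. The same difference for Actb, another control, was 2.94 and 3.09 in those 2 arrays. Over all 14 arrays it ran from 2.18 in E9.5 replicate 2 to 3.39 in E12.5 male replicate 1. All 13 measured germ cell identity markers lay above the median at E10.5, in males at E13.5 and in females at E13.5, as did 12 of 13 at E9.5, and Dppa3 (stella) lay between 13.09 and 13.76 over the groups. A probe set passed the test where its adjusted p was under 0.05 (limma, Benjamini-Hochberg over all 34945 probe sets within each comparison). In samples of whole cell groups like these, fewer cells that express a gene and less RNA per cell cannot be told apart.

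Tet1 was the only one of the 3 genes with probe sets above the median on all 14 arrays. The brightest was 1455425_at, which stayed high from E9.5 to E13.5. It read 10.41 and 10.43 at E9.5, 10.96 and 10.12 at E10.5, 11.11 and 10.10 at E11.5, 11.13 and 10.72 in males at E12.5, 10.68 and 10.43 in females at E12.5, 10.91 and 10.55 in males at E13.5, and 10.19 and 9.53 in females at E13.5. The lowest array and the lowest group mean, 9.86, were those of E13.5 females, and the highest group mean was 10.93 in E12.5 males. Replicates at E10.5 and at E11.5 lay further apart than the means of any groups other than E13.5 females, and the pooled SD within groups was 0.42. The second probe set, 1429448_s_at, read 6.54 and 6.63 at E9.5, 8.06 and 8.12 at E10.5, 8.44 and 8.61 at E11.5, 9.19 and 9.29 in males at E12.5, 9.26 and 9.06 in females at E12.5, 9.79 and 9.73 in males at E13.5, and 9.01 and 8.95 in females at E13.5. Its lowest 2 arrays were those at E9.5 and its highest 2 those of E13.5 males, and with a pooled SD of 0.08 most groups were clear of each other. Arranged by mean it ran E9.5, E10.5, E11.5, E13.5 females, E12.5 females, E12.5 males and E13.5 males. Neighbouring groups in that order did not overlap, except E12.5 females and E12.5 males, and the share of all probe sets like this was not computed. In Affymetrix naming the ending _s_at marks probes shared by more than one transcript, and the plain _at ending probes meant for 1.

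The other 2 Tet1 probe sets were dim on most arrays and showed no stage or sex difference that passed. 1419897_at ranged from 2.75 in an E13.5 male array to 4.90 in an E12.5 male array and lay above the median on 3 of 14 arrays. 1419896_at ranged from 3.34 at E10.5 to 4.95 in an E12.5 female array and lay above it on 2 of 14. Across the 12 arrays of E10.5 and later, 1419896_at correlated with 1429448_s_at at r = 0.63, while the 2 bright probe sets correlated with each other at r = 0.12. These values describe arrays that share groups and processing.

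**Figure D1:**
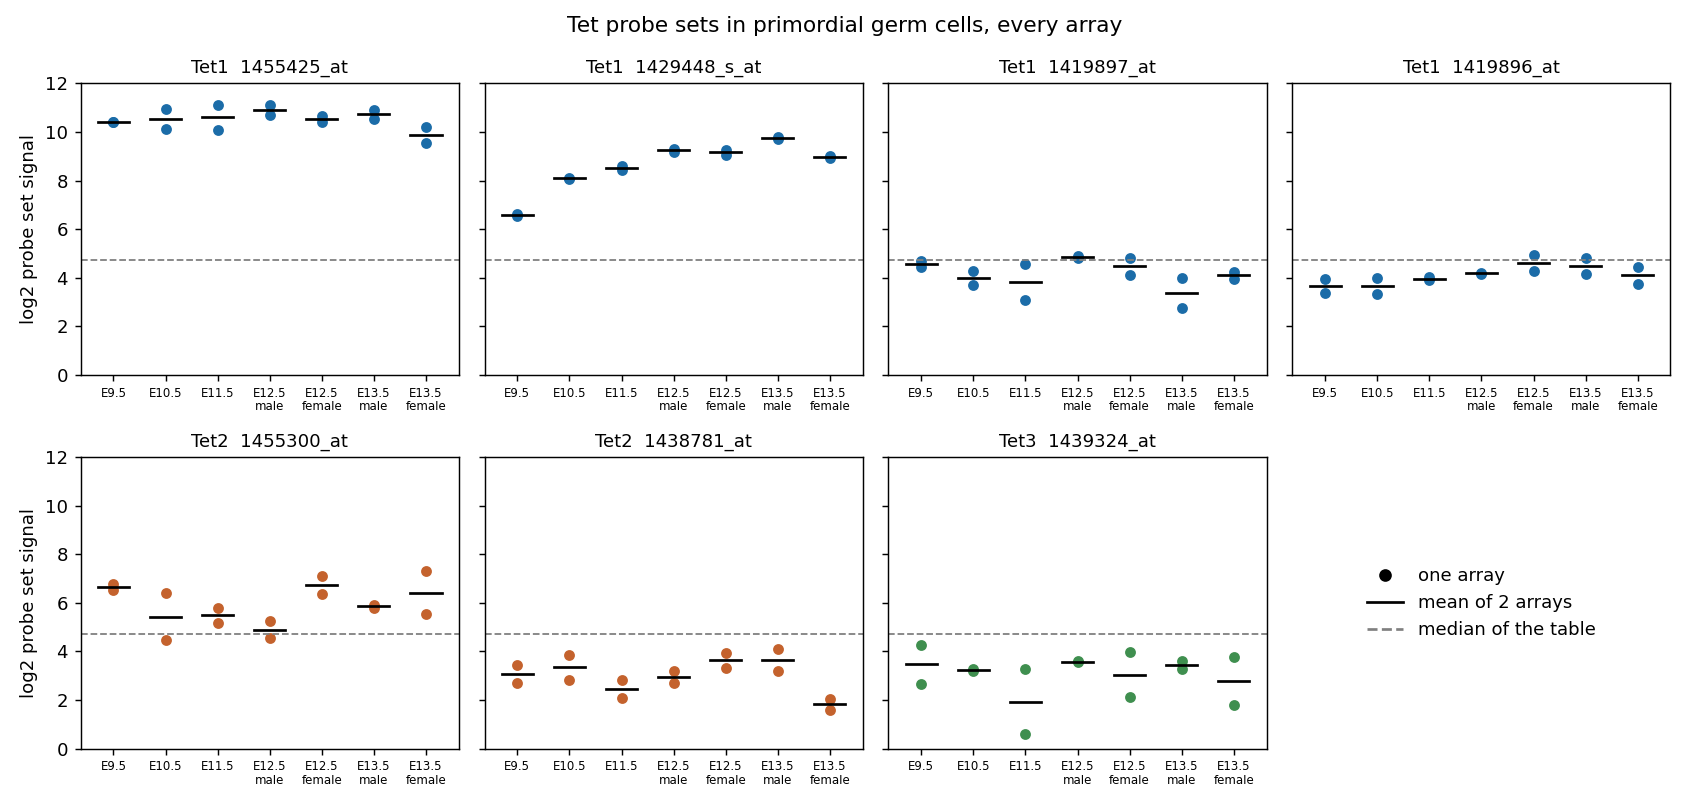
Log2 signal (vertical axis) of each Tet probe set in the 7 groups (horizontal axis, stages low to high, males left of females), with points for the 2 arrays of a group, short lines for their mean and a dashed line for the table median of 4.72. Tet1 1455425_at stays near 10.5, Tet1 1429448_s_at runs between 6.54 and 9.79, and Tet3 and the second Tet2 probe set lie below the median on all 14 arrays.

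Tet2 was nearer the median, and its better probe set varied more between replicates than either bright Tet1 probe set. 1455300_at read 6.78 and 6.54 at E9.5, 6.39 and 4.46 at E10.5, 5.80 and 5.18 at E11.5, 5.25 and 4.56 in males at E12.5, 7.11 and 6.37 in females at E12.5, 5.78 and 5.93 in males at E13.5, and 5.54 and 7.31 in females at E13.5. It lay above the median on 12 of 14 arrays, below it in 1 of the E10.5 and 1 of the E12.5 male arrays, and its pooled SD was 0.77. Group means ran from 4.91 in E12.5 males to 6.74 in E12.5 females, a spread of 1.84 on the log2 scale, and replicates within E10.5 and within E13.5 females were about as far apart as that. 1438781_at, the other Tet2 probe set, was dim on all 14 arrays. It read between 2.71 and 3.43 at E9.5, 2.84 and 3.87 at E10.5, 2.07 and 2.82 at E11.5, 2.70 and 3.18 in males at E12.5, 3.32 and 3.94 in females at E12.5, 3.20 and 4.10 in males at E13.5, and 1.59 and 2.05 in females at E13.5. The 2 Tet2 probe sets correlated at r = 0.26 over the 12 arrays.

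Tet3 had 1 probe set, 1439324_at, which was dim on all 14 arrays. It read 4.28 and 2.67 at E9.5, 3.26 and 3.18 at E10.5, 3.28 and 0.59 at E11.5, 3.59 and 3.58 in males at E12.5, 2.12 and 3.98 in females at E12.5, 3.62 and 3.26 in males at E13.5, and 1.80 and 3.76 in females at E13.5. The replicates at E11.5 alone spanned most of the whole range, with a pooled SD of 1.11 against a spread of group means of 1.65, and no order of the groups could be read from it. A dim reading by 1 probe set limits what this array shows of the gene, and does not show that the transcript was absent.

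Between E9.5 and E10.5, when germ cells leave the hindgut for the genital ridges, the 2 bright Tet1 probe sets gave different answers. 1429448_s_at averaged 8.09 ± 0.04 at E10.5 and 6.59 ± 0.06 at E9.5 (SD, n = 2 each), a log2 change of 1.51 (SE 0.18, limma adjusted p = 0.0046) or 2.84-fold, with a 95% interval of 2.18 to 3.70. 1455425_at averaged 10.54 at E10.5 and 10.42 at E9.5, a change of 0.12 (95% interval -0.67 to 0.91, adjusted p = 0.915). Thus 1 of 7 Tet probe sets passed, in a comparison in which 0.498% of all probe sets did. Tet2 1455300_at was lower in both E10.5 arrays than in both E9.5 arrays, with a change of -1.24, but it did not pass (adjusted p = 0.418). Hbb-bh1, an embryonic globin, fell by 3.58 on the log2 scale in the same comparison, and the summed level of 8 blood markers was 42.15 to 43.32 at E10.5 and 46.82 to 53.90 at E9.5. Summed levels here and below add log2 signals, dim ones included, and are not amounts of cells. Of the 8 blood markers, 5 lay above the median in each of these groups. The part of blood cells in the Tet1 result was not tested. With only these 4 arrays in the fit the Tet1 change was the same and the adjusted p was 0.751.

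From E10.5 to E13.5 no single day brought a change that passed in any Tet probe set, while the whole interval did. For 1429448_s_at the daily log2 changes were 0.44 at E11.5 against E10.5 (adjusted p = 0.703), 0.72 in males at E12.5 and 0.64 in females at E12.5 against E11.5 (adjusted p = 0.147 and 0.137), 0.52 in E13.5 males against E12.5 males (adjusted p = 0.224) and -0.18 in E13.5 females against E12.5 females (adjusted p = 0.764). In the first 4 of these both later arrays lay above both earlier ones, and in the last both E13.5 female arrays lay below both E12.5 female ones. The share of all probe sets with such separation was not computed in any comparison. It is therefore only described, and no direction is read from it. The count was 0 of 7 Tet probe sets in each of the 5 comparisons, beside 0.0601% of all probe sets at E11.5 against E10.5, 0.381% in males and 0.87% in females of E12.5 against E11.5, 1.01% in E13.5 males against E12.5 males and 0.618% in E13.5 females against E12.5 females. For 1455425_at the same changes were 0.07, 0.32 in males and -0.05 in females, then -0.20 in males and -0.70 in females, each with an SE of 0.38. Both E13.5 female arrays lay below both E12.5 female arrays, with an adjusted p of 0.520. Tet2 1455300_at was higher in both E12.5 female arrays than at E11.5, by 1.25 (adjusted p = 0.537), and in both E13.5 male arrays than in E12.5 males, by 0.95 (adjusted p = 0.633).

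At E13.5 germ cells have settled in the gonad. Set against E10.5, Tet1 1429448_s_at was higher in both sexes. It averaged 9.76 ± 0.04 in E13.5 males and 8.09 ± 0.04 at E10.5 (SD, n = 2 each), a log2 change of 1.67 (SE 0.17, adjusted p = 0.000233), which is 3.18-fold with a 95% interval of 2.44 to 4.14. It averaged 8.98 ± 0.04 in E13.5 females (SD, n = 2), a log2 change of 0.89 against the same E10.5 arrays (SE 0.17, adjusted p = 0.0065), or 1.85-fold with an interval of 1.42 to 2.41. In each sex 1 of 7 Tet probe sets passed. Of all probe sets, 8.99% passed in males and 12.7% in females, so 1 of 7 is close to that background. 1455425_at changed by 0.19 in males (adjusted p = 0.841) and by -0.68 in females (adjusted p = 0.318), and its interval in females, -1.52 to 0.16, does not reach the value of the other probe set. Tet2 1455300_at changed by 0.43 in males and 1.0 in females with an SE of 0.67, and neither passed. The dim Tet2 1438781_at changed by -1.54 in females (adjusted p = 0.0977). Both comparisons share the E10.5 arrays. With only the compared arrays in the fit, 1429448_s_at no longer passed (adjusted p = 0.0501 in males and 0.155 in females).

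A linear change per day was fitted over the 12 arrays of E10.5 and later, with both sexes together, after the values had been seen. It gave 0.44 log2 per day for Tet1 1429448_s_at (SE 0.08, limma adjusted p = 0.00286), and 9.74% of all probe sets passed that test. The same term was -0.08 per day for 1455425_at (95% interval -0.34 to 0.17, adjusted p = 0.759) and 0.26 per day for Tet2 1455300_at (adjusted p = 0.535). No other Tet probe set passed. At an unadjusted p under 0.05, between 1 and 3 of the 7 Tet probe sets were found in each of the 12 comparisons, beside 6.35% to 24.5% of all probe sets.

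**Figure D2:**
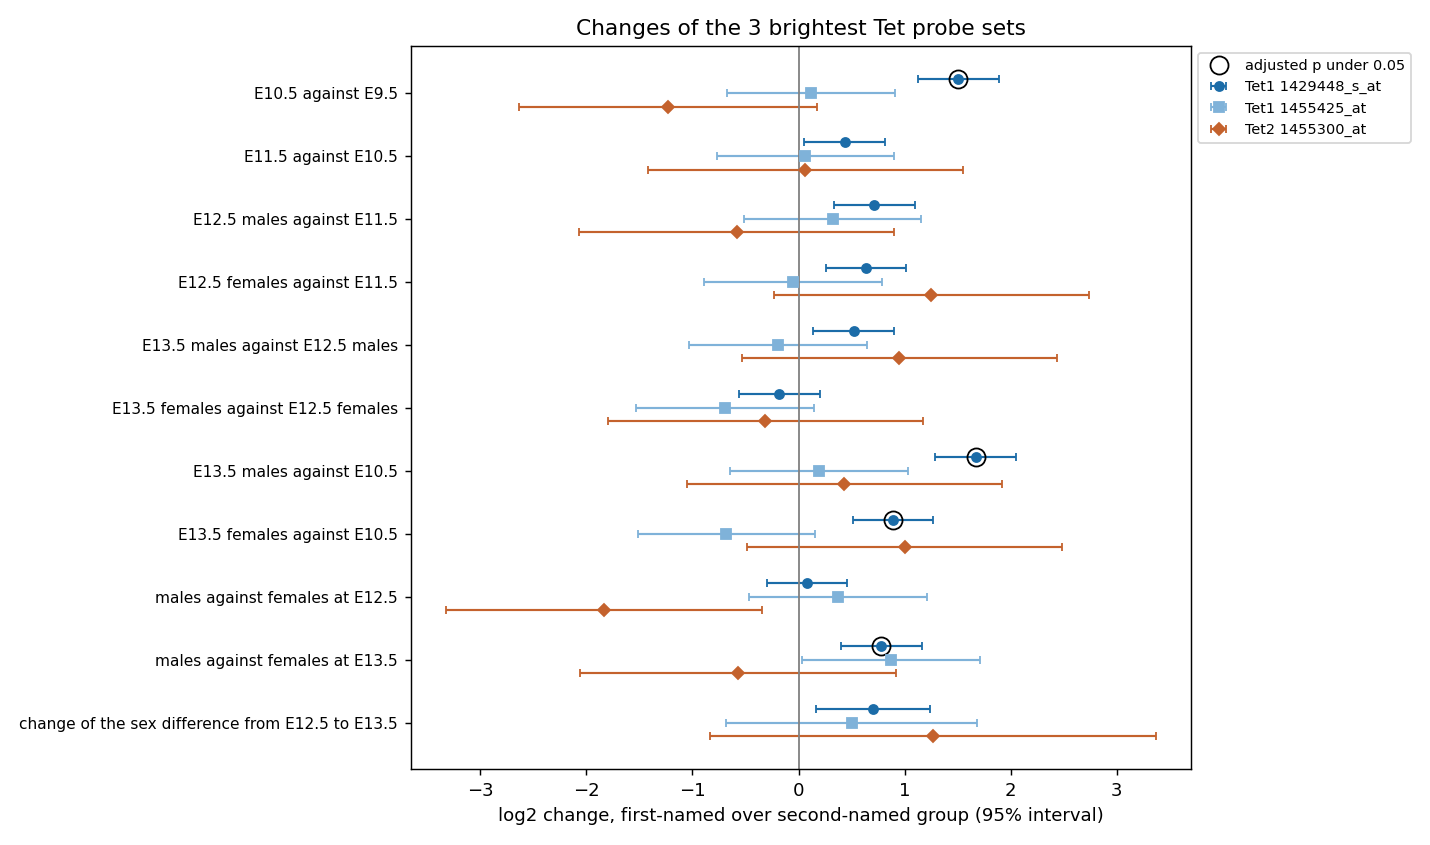
Log2 change of the 3 brightest Tet probe sets (horizontal axis) in 11 comparisons (rows), first-named group over second-named, with 95% intervals from limma as bars and rings where the adjusted p was under 0.05. Rings stand on Tet1 1429448_s_at only, at E10.5 against E9.5, at E13.5 against E10.5 in each sex and at E13.5 between the sexes, and the intervals of Tet2 1455300_at are the widest.

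At E13.5 the 2 bright Tet1 probe sets had higher means in males than in females, and 1 of these differences passed. 1429448_s_at read 9.79 and 9.73 in males at E13.5, against 9.01 and 8.95 in females at E13.5, a log2 difference of 0.78 (SE 0.17, adjusted p = 0.0226), or 1.72-fold with an interval of 1.32 to 2.24. 1455425_at read 10.91 and 10.55 in males, against 10.19 and 9.53 in females, a difference of 0.87 (SE 0.38, unadjusted p = 0.043, adjusted p = 0.255), or 1.83-fold with an interval of 1.02 to 3.26. The 2 probe sets therefore gave differences of similar size here. The count was 1 of 7, in a comparison in which 6.41% of all probe sets passed. The call of 1429448_s_at did not stand without any one of its 4 arrays: with either replicate of E13.5 males or of E13.5 females left out, the difference was 0.75 to 0.81 and the adjusted p 0.0957 to 0.133. Nor did it stand with only these 4 arrays in the fit (adjusted p = 0.0862) or with no intensity trend (adjusted p = 0.0647). With the Gapdh difference as a covariate 1455425_at passed as well (0.96, adjusted p = 0.0450), and it also passed with replicate number as a block. At E12.5 the difference was 0.08 for 1429448_s_at (adjusted p = 0.952), with overlapping arrays, and 0.37 for 1455425_at (adjusted p = 0.850), with males above females. There 0 of 7 Tet probe sets passed, beside 1.29% of all probe sets. The change of the sex difference between the ages was 0.70 for 1429448_s_at (SE 0.24, unadjusted p = 0.0157), and its adjusted p was 0.622, so the sex difference was not shown to differ between these ages. With limma 0% of all probe sets passed that test, with 2220 at an unadjusted p under 0.05.

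Some markers of gonadal cells differed between the sexes at the same age, in a comparison in which 3.55% of all genes were higher and 5.07% lower in males. Of 7 markers of male supporting cells, Cst9 and Ptgds were higher in E13.5 males, by 6.44 and 3.41 on the log2 scale, and the list's summed level was 44.46 to 45.22 in E13.5 males and 33.66 to 36.07 in E13.5 females. Sox9, the defining transcription factor of these cells, was dim, with 2.39 and 2.82 in males and 2.95 and 3.31 in females, and Amh read 6.03 and 5.99 in males and 6.17 and 5.70 in females. Of 7 markers of female supporting cells, Irx3 and Bmp2 were lower in males, by -4.11 and -1.50, and Foxl2 read 5.53 and 5.49 in males and 5.76 and 5.50 in females. No marker named here was at 0, and the part of such cells in the Tet1 difference was not tested.

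The 2 Tet2 probe sets were furthest apart between the sexes at different ages, 1455300_at at E12.5 and 1438781_at at E13.5. 1455300_at read 5.25 and 4.56 in males at E12.5, against 7.11 and 6.37 in females at E12.5, a difference of -1.84 with an interval of -3.32 to -0.35 (unadjusted p = 0.0203, adjusted p = 0.308), which did not pass. At E13.5 the same probe set gave -0.57 with overlapping arrays (adjusted p = 0.767). The dim 1438781_at gave 1.83 at E13.5 (unadjusted p = 0.0066, adjusted p = 0.079), with 3.20 and 4.10 in males and 1.59 and 2.05 in females. The 2 Tet2 probe sets thus differed in sign at E13.5, and neither passed. At E12.5 the dim probe set gave -0.69 (adjusted p = 0.775).

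How far the 2 bright Tet1 probe sets diverged was followed within each array as 1429448_s_at minus 1455425_at. Only changes of this difference between arrays carry meaning, since signals of different probe sets are not on a common scale. It was -3.87 and -3.80 at E9.5, -2.90 and -2.00 at E10.5, -2.67 and -1.49 at E11.5, -1.94 and -1.43 in males at E12.5, -1.42 and -1.37 in females at E12.5, -1.12 and -0.82 in males at E13.5, and -1.18 and -0.58 in females at E13.5. All 4 E13.5 arrays lay above every earlier array, and both E9.5 arrays below every later one. The 8 arrays of E12.5 and E13.5 averaged -1.23 ± 0.41, against -2.27 ± 0.64 in the 4 arrays of E10.5 and E11.5 (SD), a description with no test, since the disagreement of these probe sets is why they were set against each other. At E13.5 the mean was -0.97 in males and -0.88 in females, closer to each other than the arrays of either sex. The difference moved with the Gapdh 3′ minus 5′ difference, at r = 0.69 over the 12 arrays of E10.5 and later. In each of their 6 groups the array with the higher Gapdh difference also had the higher Tet1 probe set difference. For example, the Gapdh differences were 1.18 and 2.53 at E11.5 and 0.44 and 1.38 at E10.5. That array was replicate 2 each time, and in E12.5 females the Gapdh differences were only 1.15 and 1.17. At E9.5 the order was the reverse, with Gapdh differences of 1.2 and 0.21 beside Tet1 probe set differences of -3.87 and -3.80. The Actb 3′ minus 5′ difference followed the Gapdh order at E10.5, with 2.70 and 2.97. In each later group it was lower in replicate 2, for example 3.24 and 2.90 at E11.5 and 3.29 and 2.94 in E13.5 males. The r of 1429448_s_at itself with the Gapdh difference was 0.30 over the same 12 arrays. The part of RNA integrity and amplification in the divergence was not tested.

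**Figure D3:**
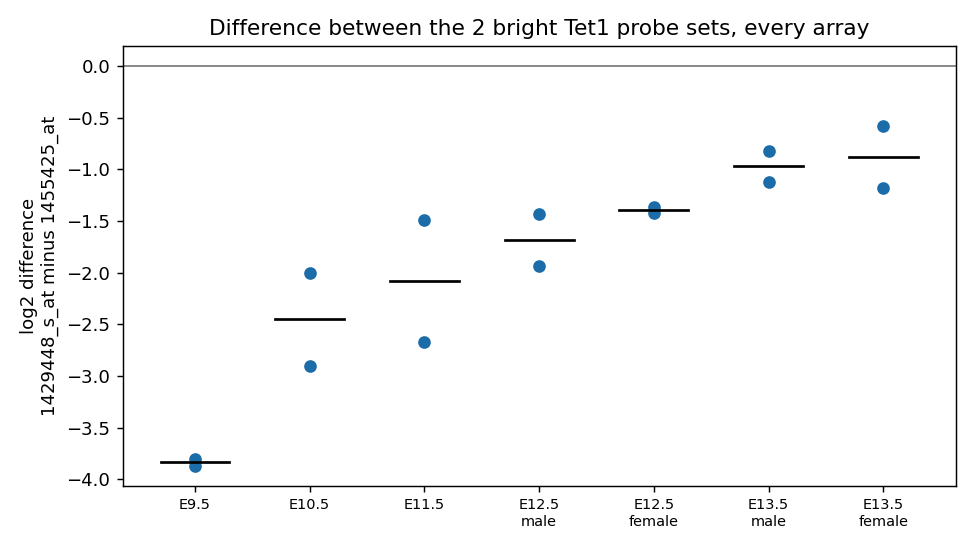
Difference of the 2 bright Tet1 probe sets within each array, 1429448_s_at minus 1455425_at in log2 units (vertical axis), for the 7 groups (horizontal axis, males left of females within an age), with a point per array. The 2 values at E9.5, -3.87 and -3.80, are the lowest, and the 4 at E13.5, between -1.18 and -0.58, are the highest.

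Genes whose levels were most like those of Tet1 depended on the probe set. Likeness was Pearson's r over the 12 arrays of E10.5 and later, among 12098 genes above the table median, given as a description of arrays that share groups and processing. For 1455425_at the nearest were Copz1 (r = 0.949), Ivns1abp (0.949), Pisd (0.944), Timm44 (0.930) and Bet1l (0.929), and 14 genes exceeded 0.9. For 1429448_s_at, looked up after its values had been seen, they were Arhgef18 (r = 0.969), Pik3ca (0.968), Actn2 (0.963), Dennd2c (0.951) and Pnpla7 (0.949), and 45 genes exceeded 0.9. Copz1, a coat protein of transport vesicles, shared the low level in E13.5 females and the gap between E10.5 replicates, and averaged 9.88 ± 0.21 in E13.5 females and 10.39 ± 0.54 at E10.5 (SD, n = 2 each). Arhgef18 averaged 10.01 in E13.5 males, with equal replicates, 9.28 ± 0.11 in E13.5 females and 7.88 ± 0.21 at E10.5 (SD, n = 2 each). With the E9.5 arrays included r was 0.819 for Copz1 with 1455425_at and 0.898 for Arhgef18 with 1429448_s_at. It then ran from 0.731 (Timm44) to 0.845 (Pisd) for the first probe set, and from 0.871 (Pnpla7) to 0.953 (Dennd2c) for the second. For Tet2 1455300_at the nearest were Dgkz (r = 0.909), Pdpn (0.899), Esrp2 (0.876), Uri1 (0.865) and Zfp524 (0.863). With the E9.5 arrays these were 0.881, 0.904, 0.836, 0.455 and 0.555 in that order. For the dim Tet3 probe set the nearest were 9030607L20Rik (r = 0.829), Map1a (0.780), Acvrl1 (0.779), Glt28d2 (0.770) and Hhatl (0.754), and 0 genes exceeded 0.9. With the E9.5 arrays these 5 were 0.755, 0.588, 0.461, 0.685 and 0.691 in that order.

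Around the TET enzymes, genes of their cofactor, of their partners and of the removal of oxidized bases were read from 1 probe set per gene. Of 18193 genes, 0.539% were higher and 0.198% lower at E10.5 against E9.5, 6.54% higher and 4.6% lower in E13.5 males against E10.5, 10.4% higher and 5.46% lower in E13.5 females against E10.5, and 3.55% higher and 5.07% lower in E13.5 males against E13.5 females. The median change over all genes was -0.07, 0.07, 0.08 and -0.02 in that order of comparisons. Of 16 partners and regulators of TET proteins, Ogt was the only one called in males. Ogt, the O-GlcNAc transferase that binds TET proteins, read 11.39 and 11.36 in males at E13.5, 10.85 and 10.36 in females at E13.5 and 10.34 and 10.49 at E10.5. Both male arrays were above all the others, and Ogt passed in E13.5 males against E10.5 (0.96, adjusted p = 0.0140) and against E13.5 females (0.77, adjusted p = 0.0494). In E13.5 females against E10.5 the list gave 0 higher and 2 lower, with a median of -0.07. These were Nanog (-2.10), the pluripotency factor, at 8.79 and 8.81 in females at E13.5 and 11.50 and 10.30 at E10.5, and Prdm14 (-0.70), a regulator of germ cell specification, at 9.90 and 10.08 in females at E13.5 and 10.71 and 10.68 at E10.5. The list's median was -0.32 in E13.5 males against E10.5, 0.00 between the sexes and -0.07 at E10.5 against E9.5, where 0 of 16 were called.

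Genes that process or read oxidized cytosine gave only lower calls at E13.5 against E10.5. Of 11 measured members of 15, 0 were higher and 2 lower in E13.5 males against E10.5 (median -0.06), and 0 were higher and 4 lower in E13.5 females against E10.5 (median -0.34). Of all genes 6.54% were higher and 4.6% lower in males, and 10.4% higher and 5.46% lower in females. Hmces, which binds abasic sites in single-stranded DNA and was first found among readers of 5-hydroxymethylcytosine, read 10.11 and 10.23 in males at E13.5, 10.75 and 10.72 in females at E13.5 and 11.65 and 11.14 at E10.5, and fell by 1.23 in males and 0.66 in females. Mbd3, a subunit of the NuRD complex, read 10.22 and 10.19 in males, 9.88 and 9.87 in females and 11.02 and 10.69 at E10.5, and fell by 0.65 and 0.98 in that order of the sexes. Neil1, a glycosylase of base excision repair, fell by 0.99 in females. Apobec2, a member of the cytidine deaminase family, read 7.47 and 7.78 in males at E13.5, 5.77 and 4.89 in females at E13.5 and 7.82 and 6.38 at E10.5, fell by 1.77 in females and was 2.29 higher in males than in females at E13.5. That was the 1 call between the sexes (1 higher, 0 lower, median 0.28), and 0 of 11 were called at E10.5 against E9.5 (median 0.17).

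The enzymes that make, use or compete with 2-oxoglutarate, the TET cosubstrate, were measured for 21 of 22 listed genes, of which 0 were called at E10.5 against E9.5 (median 0.03). In E13.5 males against E10.5, 0 were higher and 2 lower (median -0.04), beside 6.54% and 4.6% of all genes. The 2 were Got1, the cytosolic aspartate aminotransferase (-1.65), and Psat1, the phosphoserine aminotransferase that yields 2-oxoglutarate (-1.14). In E13.5 females against E10.5, 1 was higher and 2 lower (median 0.24), beside 10.4% and 5.46% of all genes. The called genes were Idh3g, a subunit of the mitochondrial isocitrate dehydrogenase (0.83), Got1 (-2.55) and Got2, its mitochondrial counterpart (-0.95). In each sex the counts against E10.5 were close to the background. Got1 read 9.54 and 9.16 in males at E13.5, 8.37 and 8.52 in females at E13.5 and 11.17 and 10.82 at E10.5, with no overlap between the 3 groups. Between the sexes at E13.5, 2 were higher in males (Got1, 0.91, and Got2, 0.75) and 3 lower in males (Psat1, -1.06, Idh2, -1.0, and Idh3g, -0.75), with a median of -0.14. Of all genes 3.55% were higher and 5.07% lower there. Of 9 other dioxygenases of nucleic acids, the Alkbh family and Fto, 0 were called in any of the 4 comparisons, with medians of -0.20 at E10.5 against E9.5, 0.17 in males at E13.5 and -0.01 in females at E13.5 against E10.5, and 0.20 between the sexes. At an unadjusted p under 0.05 (limma) there were 3, 1, 3 and 2 of the 9 in that order, beside 15.5%, 24.7%, 28.6% and 22.0% of all genes, and median centring or quantile normalization gave 3 calls in E13.5 females against E10.5.

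Among 9 genes of DNA methyltransferases and maintenance methylation, Hells, a chromatin remodeller needed for DNA methylation, rose by 1.21 in E13.5 females against E10.5 (adjusted p = 0.0161), and it was the 1 call in the 4 comparisons. Of all genes 10.4% were higher in E13.5 females against E10.5, so 1 of 9 is close to the background. Dnmt1, the maintenance methyltransferase, changed by 0.01 in E13.5 males (adjusted p = 0.986) and by 0.41 in E13.5 females (adjusted p = 0.341) against E10.5. The list's medians were 0.23 in males and 0.26 in females against E10.5, -0.11 between the sexes and -0.27 at E10.5 against E9.5.

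Calls in these 5 lists rest on 2 arrays a group, and the setting of the fit and single arrays moved them. With the compared arrays alone in the fit, the processing list gave 0 calls in each sex against E10.5, and the partners 0 in females. The 2-oxoglutarate list then gave 0 calls in males and 1 in females against E10.5, and 0 between the sexes. With no intensity trend the partners gave 0 calls in males, and the methyltransferase list 0 in females, against E10.5. Ogt was no longer called in E13.5 males against E10.5 without either E13.5 male array, nor between the sexes without either male array or without E13.5 female replicate 2, and no partner was called in E13.5 females without either female array. Among processing genes, 1 of the 2 calls in males was left without either male array, 2 of the 4 in females without E10.5 replicate 1 and 1 without E13.5 female replicate 2, and the Apobec2 call between the sexes was lost without either male array or without female replicate 2. In the 2-oxoglutarate list the 5 calls between the sexes became 2 without any one of the 4 arrays, the 3 in females became 5 without E10.5 replicate 1 or E13.5 female replicate 2, and the 2 in males became 1 without E13.5 male replicate 2. Hells was not called without E13.5 female replicate 1. Without E10.5 replicate 1 the Alkbh and Fto list gave 2 calls at E10.5 against E9.5, and 1 in each sex at E13.5 against E10.5.

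Germline genes that have been reported to need promoter demethylation for their expression, several of them with Tet1, had the largest medians of the 6 lists. Of 17 measured members of 20, 10 were higher and 0 lower at E10.5 against E9.5 (median 1.67), with Dazl (4.37), an RNA-binding protein of germ cells, Asz1 (2.89), Hormad1 (2.83) and Mael (2.59), a piRNA pathway protein, as the largest. In E13.5 males against E10.5, 15 were higher and 0 lower (median 2.50), and in E13.5 females against E10.5, 16 were higher and 0 lower (median 3.26). Dazl read 13.41 and 13.25 in males at E13.5, 13.52 and 13.16 in females at E13.5 and 8.96 and 9.18 at E10.5. Sycp1, a protein of the synaptonemal complex, rose by 4.36 in males and 5.47 in females. Stra8, the gatekeeper of meiosis, rose by 7.82 in E13.5 females against E10.5, and Taf7l and Tex101 by 5.74 and 5.21. Between the sexes at E13.5, 0 were higher and 4 lower in males (median -0.45), and these were Stra8 (-6.83), Tex101 (-3.06), Taf7l (-2.17) and Sycp3 (-1.55). In that comparison Tet1 1429448_s_at was higher in males while these 4 genes were higher in females. Whether the 2 differences are related was not tested. The list was drawn up with earlier results of these data known. With the compared arrays alone in the fit it gave 0 calls at E10.5 against E9.5, 11 in males and 13 in females against E10.5, and 3 between the sexes. Without any one array its counts stayed within 1.5 times the values above.

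**Figure D4:**
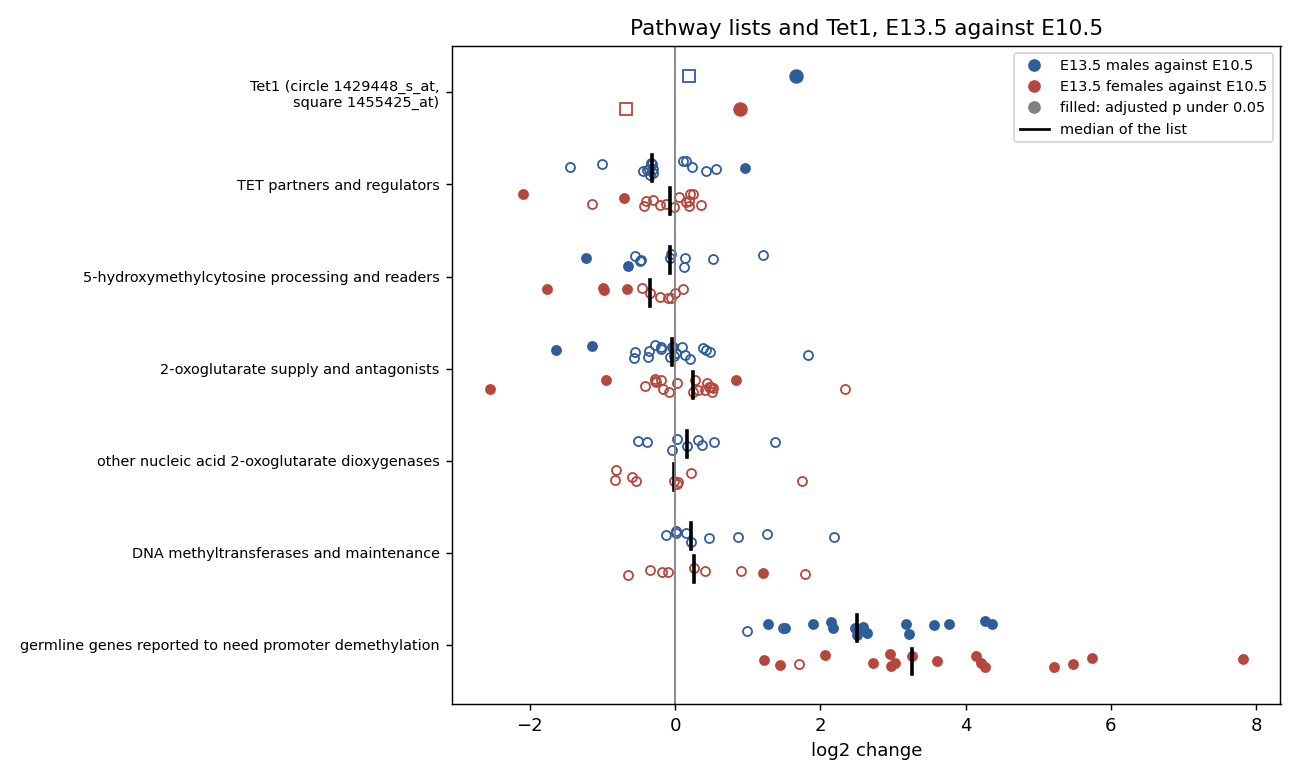
Log2 change at E13.5 against E10.5 (horizontal axis) of Tet1 and of the genes of 6 lists (rows), blue for males and red for females below them, 1 point per gene, filled where the adjusted p was under 0.05 and with a black line at the list's median. The germline list lies to the right with medians of 2.50 in males and 3.26 in females, the other medians lie between -0.34 and 0.26, and the Tet1 probe sets stand at 1.67 and 0.19 in males and at 0.89 and -0.68 in females.

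Some markers of other cell types that the sort could carry were lower at E13.5 than at E10.5, and others were higher. Of 10 endothelial markers, 4 were lower and 0 higher in each sex at E13.5 against E10.5, with Emcn at -2.08 in males and -2.73 in females and Tek at -1.88 and -2.44. The list's summed level was 59.18 to 60.37 in E13.5 males, 58.05 to 59.38 in E13.5 females and 67.59 to 73.03 at E10.5. That of 8 blood markers was 28.26 to 34.72 in E13.5 males, 31.73 to 35.08 in E13.5 females and 42.15 to 43.32 at E10.5, and that of 15 gonadal somatic markers 72.29 to 74.27, 74.60 to 76.06 and 79.23 to 80.96 in the same order of groups. The 15 gonadal somatic markers gave 0 higher and 3 lower calls in males against E10.5, and 1 higher and 2 lower in females. Beside these and the endothelial counts, 6.54% of all genes were higher and 4.6% lower in males, and 10.4% higher and 5.46% lower in females. The 7 male supporting cell markers summed to 44.46 to 45.22 in E13.5 males, 33.66 to 36.07 in females and 34.41 to 34.74 at E10.5. The 7 female supporting cell markers summed to 37.68 to 39.9, 42.91 to 43.51 and 36.06 to 36.59 in the same order. The part of all these cells in the changes of Tet1 and of the lists was not tested.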

How the data were processed

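The deposited values are log2 signals per probe set that the authors normalized over all 14 arrays together, including the 2 E9.5 arrays of an earlier study. Which software made them, and with what background correction and summarization, is not given in the sources used here. Of 45101 probe sets, 64 were controls, 34945 had exactly 1 gene symbol in the platform annotation, 932 several and 9160 none. The annotation can be old. Arrays give no read depth, and their number limits the precision.

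The single-symbol probe sets were fitted in limma 3.58.1 (R 4.3.3) with 1 mean per group and an intensity trend, over the 12 arrays of E10.5 and later (6 residual degrees of freedom), or over all 14 for E10.5 against E9.5 (7). The change per day was instead a straight line on embryonic day over the 12 arrays, with no term for group or sex. P-values were two-sided, adjusted by Benjamini-Hochberg within each of 12 comparisons, and called under 0.05. No values were floored or filtered. Genes in lists were read from the probe set with the highest mean. Up to 4 called members of largest change were named per list and comparison, and 5 genes nearest to the brightest probe set of each Tet gene. Sox9, Amh, Foxl2, Dppa3 and Dnmt1 are named outside that rule, after their values were seen. The members, lists and tests were chosen with earlier results of these data known. The test code was tested on simulated data.

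Alternatives were other scalings, a floor, a filter on dim probe sets, no trend, array weights, the Gapdh difference as a covariate, the compared arrays alone, gene-level values, a replicate block and leaving out each array. Replicate numbers are shared between groups. Over all probe sets the deviations of same-numbered samples correlated little between most groups, with r of 0.208 between E13.5 males and females. All columns of the table mapped to the 14 samples.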

Additional observations from a re-analysis of the deposited data

Results flagged for a closer look

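Tet1 1429448_s_at was higher in both E13.5 male arrays than in both E12.5 male arrays, and lower in both E13.5 female arrays than in both E12.5 female arrays. The mean change from E12.5 to E13.5 thus had opposite signs in the sexes, with 0.52 in males and -0.18 in females. The difference was 0.70 on the log2 scale (limma unadjusted p = 0.0157, adjusted p = 0.622), and its test did not pass. The share of all probe sets with such an arrangement was not computed.

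The dim Tet2 probe set 1438781_at had the same arrangement. Both male arrays were higher at E13.5 than at E12.5 (3.20 and 4.10, against 3.18 and 2.70) and both female arrays lower (1.59 and 2.05, against 3.94 and 3.32), a difference of 2.52 (limma unadjusted p = 0.0076, adjusted p = 0.503). All 8 values lie below the table median of 4.72.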

How the results depend on the processing

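Over 84 results of the 7 Tet probe sets, 1121 alternative values were computed. The direction and side of the threshold stayed for 1108, 9 lost a call, 4 gained one and 0 called changes reversed. All calls, gained or lost, were those of Tet1.

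With the compared arrays alone in the fit, 0 Tet probe sets passed at E10.5 against E9.5, in E13.5 males and females against E10.5 and between the sexes at E13.5, with adjusted p for 1429448_s_at of 0.751, 0.0501, 0.155 and 0.0862 in that order. With 1 probe set per gene, or with the mean of a gene's probe sets, 0 passed in those comparisons and in the change per day, since the first setting reads Tet1 from 1455425_at and the second averages it with the dim probe sets. With a floor at the 25th percentile of the table (3.12), 1 passed when E12.5 males, and 1 when E12.5 females, were set against E11.5, with adjusted p for 1429448_s_at of 0.0383 in males and 0.0371 in females. Between the sexes at E13.5, 0 passed with no intensity trend (adjusted p = 0.0647), and 2 passed with the Gapdh difference as a covariate, where 1455425_at gave 0.96 (adjusted p = 0.0450).

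Replicate numbers are shared between groups. Deviations of same-numbered samples correlated at -0.267 to 0.231 over 21 pairs of groups (median -0.006), and 2 pairs exceeded 0.1. These were E10.5 with E11.5 (0.231) and E13.5 males with E13.5 females (0.208), the latter being the groups of the sex comparison at E13.5. Between the other groups there was little positive pairing by number over all probe sets. However, replicate 2 had the higher Gapdh difference and the lower Tet1 1455425_at signal in each group of E10.5 and later. Whether same-numbered samples shared processing was not tested. With the replicate block 2 Tet probe sets passed between the sexes at E13.5, where Tet1 1455425_at gave 0.87 (adjusted p = 0.0412) and 1429448_s_at an adjusted p of 0.0290. No other comparison changed its count of Tet probe sets under the block.

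Without any one array the counts of Tet probe sets were 1 at E10.5 against E9.5, in E13.5 males and females against E10.5 and in the change per day, and 0 between the sexes at E13.5. The change of 1429448_s_at then ranged from 1.46 to 1.55 at E10.5 against E9.5, from 1.64 to 1.70 in males and 0.86 to 0.92 in females against E10.5, from 0.75 to 0.81 between the sexes and from 0.40 to 0.49 per day. Quantile normalization gave 1.60, 1.56, 0.73 and 0.83 for the first 4 of these. For the change of the sex difference, 0 probe sets passed of all tested, against 70 with the floor, 5 with array weights, 2 with bright probe sets alone and 2 of 18193 with 1 probe set per gene.

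With 2 arrays a group and signals near or below the median, changes of the size seen in Tet1 could be missed in Tet2 and Tet3: the SE of Tet2 1455300_at was 0.67, against 0.17 for Tet1 1429448_s_at.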
